A study of Mus musculus with 6 samples.

Results

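The gene of the glucocorticoid receptor (*Nr3c1*), the gene of the enzyme that activates glucocorticoids inside cells (*Hsd11b1*) and 6 genes known to respond to the hormone (*Tsc22d3*, *Fkbp5*, *Zbtb16*, *Klf9*, *Dusp1* and *Sgk1*) were followed in ECFP+ osteoblasts (OBs) of BMP-2-induced ectopic bone. These 8 genes were taken by name, with no measured value in the rule but with earlier results of these data known. All 8 were found by symbol among the 23284 genes that each sample lists. Both groups came from male *Col2.3*-ECFP mice, 12 to 16 weeks old, in which a type I collagen promoter makes OBs cyan fluorescent, and which received a subcutaneous collagen sponge with 2.5 μg of recombinant human BMP-2, a protein that induces bone. The groups differed in the day of collection, day 10 (n = 3) or day 14 (n = 3), and in the number of collagenase II digestions, 1 on day 10 and 2 on day 14, so that day and digestion cannot be told apart. CD45+ cells (blood-derived) and 7AAD+ cells (dead) were gated out, and the ECFP+ cells were then sorted. The samples are titled as biological replicates. How many mice gave each sample is not given in the sources used here, so the p-values measure the spread between these samples. The titles of the later group say day 14, whereas the free-text descriptions of its replicates 2 and 3 say day 15 and 16. No glucocorticoid treatment was named for either group, and no hormone level was given.

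Glucocorticoids enter cells and bind the receptor, which is held in the cytoplasm by the chaperone Hsp90 and its co-chaperones until the hormone arrives. The bound receptor moves to the nucleus, where it binds DNA at glucocorticoid response elements or acts through other transcription factors. The enzyme of *Hsd11b1* makes active hormone from its inactive 11-keto form inside the cell, and the enzyme of *Hsd11b2* does the reverse. In bone, OBs need some glucocorticoid for normal differentiation, and an excess of it lowers bone formation.

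Expression was measured as FPKM, the number of sequenced fragments of a gene scaled by the length of its exons and by the depth of the sample. From the step size of low values, between 4525000 and 7740000 reads were estimated per sample, and 3 reads on a transcript of 1000 bases would correspond to between 0.388 and 0.663 FPKM, a floor that covers counting error only. As a check of the label, 10 OB markers summed to between 43249 and 85761 FPKM on day 10 and to 35347, 63499.9 and 28589.7 FPKM in day 14 replicates 1, 2 and 3, with *Col1a1* at 14151 FPKM or more in every sample. All 10 had a lower mean log2 level on day 14, where 10441 of all 19526 genes tested had one. The 10 markers had a median log2 fold change of −1.25. Of them, 2 were lower at an unadjusted limma p under 0.05, as were 4.4% of all tested genes. Without day 14 replicate 2, 6 of them were, and 1178 of all 19674 genes tested. Day 14 replicate 2 stood apart from the other samples of its day in these OB markers and in cartilage genes, where 10 chondrocyte markers summed to 2464 FPKM against 234 and 173 FPKM in replicates 1 and 3. The chondrocyte sums on day 10 lay between 769 and 1595 FPKM. Over the 19526 genes tested with limma, 3 genes (0.0154%) had an adjusted p under 0.05, and 76 did when day 14 replicate 2 was left out. The 3 genes, named after their values were seen, were *Cxcl2*, *Mir1892* and *Snora70*, none of them a member.

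Sequences upstream of transcription start sites are shown for the member with the largest difference between days (*Hsd11b1*) and for the members whose windows held a full match to a searched element (*Sgk1* and *Dusp1*). RefSeq windows on GRCm38.p6, reaching from 250 bases before to 50 bases after a start, were used for 6 of the 8 members (13 windows). They were searched on both strands for the receptor half-site AGAACA, for the palindromic glucocorticoid response element, in which this half-site and its reverse complement TGTTCT stand 3 bases apart, and for the cAMP response element TGACGTCA. Only the 250 bases before the start are printed, 5′ to 3′ on the strand of the gene, and capitals mark a full match. The windows are chr10:21993640-21993889 (plus strand) for *Sgk1*, chr17:26508473-26508722 (minus strand) for *Dusp1* and chr1:193242361-193242610 (minus strand) for *Hsd11b1*.
Sgk1: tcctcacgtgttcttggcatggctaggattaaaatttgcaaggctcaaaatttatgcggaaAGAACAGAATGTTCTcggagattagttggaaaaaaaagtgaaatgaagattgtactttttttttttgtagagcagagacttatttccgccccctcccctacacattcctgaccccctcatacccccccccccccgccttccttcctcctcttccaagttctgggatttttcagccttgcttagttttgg
Dusp1: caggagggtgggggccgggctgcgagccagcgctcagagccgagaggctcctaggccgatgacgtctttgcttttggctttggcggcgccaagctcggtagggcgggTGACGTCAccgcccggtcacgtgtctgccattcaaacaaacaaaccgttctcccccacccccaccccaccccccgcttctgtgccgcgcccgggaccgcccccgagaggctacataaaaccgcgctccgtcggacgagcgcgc
Hsd11b1: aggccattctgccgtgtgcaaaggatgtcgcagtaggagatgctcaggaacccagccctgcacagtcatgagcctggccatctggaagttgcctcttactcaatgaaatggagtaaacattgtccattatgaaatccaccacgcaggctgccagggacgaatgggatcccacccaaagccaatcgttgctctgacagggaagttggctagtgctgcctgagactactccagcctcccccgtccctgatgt
The full response element occurred in 3 of 32851 windows of all genes (0.00913%), and 1 of these 3 was the fifth of 6 *Sgk1* windows. The match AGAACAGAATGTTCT lay at chr10:21993701-21993715, began 189 bases before that start and fell between exons within the annotated *Sgk1* gene. Half-sites were in 18.97% of all windows, and in 4 windows of 2 members, *Sgk1* and *Tsc22d3*. The cAMP response element, bound by the transcription factor Creb, was in 1.79% of all windows and, among the members, in that of *Dusp1* at chr17:26508608-26508615, 143 bases before the start. The windows of *Hsd11b1*, *Fkbp5* and *Klf9* held none of these letters. Of the 30 other glucocorticoid-induced genes listed below, 25 had windows (33 in all); none held the full element and 4 genes held a half-site. Only exact matches inside these windows were sought, so elements with other letters or at other places would be missed. The matches are descriptions of letters, and binding was not measured.

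All 8 members had a higher mean log2 level on day 14 than on day 10, where 9085 of all 19526 genes tested had one. However, *Dusp1* and *Zbtb16* lay near 0 and turned sign under another scaling. The median log2 fold change was −0.04 over all genes tested and 0.33 over the 8 members. None passed an adjusted p of 0.05. At an unadjusted limma p under 0.05, 3 of 8 members (*Nr3c1*, *Hsd11b1* and *Sgk1*) were higher on day 14, where 5.6% of all tested genes and 12.4% of the 6751 genes whose mean was at least 5 FPKM were. The same 3 members had every day 14 sample above every day 10 sample, as did 7.59% of all tested genes and 13.8% of those 6751 genes. No member had every day 14 sample below every day 10 sample, as did 6.67% of all tested genes. *Hsd11b1* was the 1 member over 2-fold higher on day 14 (5.25% of all tested genes), and none was over 2-fold lower (8.39%). The count at an unadjusted p under 0.05 was 1 of 8 (*Hsd11b1*) without day 10 replicate 1 and also without day 14 replicate 2. With 3 samples against 3, the exact permutation test cannot go below p = 0.1.

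**Figure D1:**
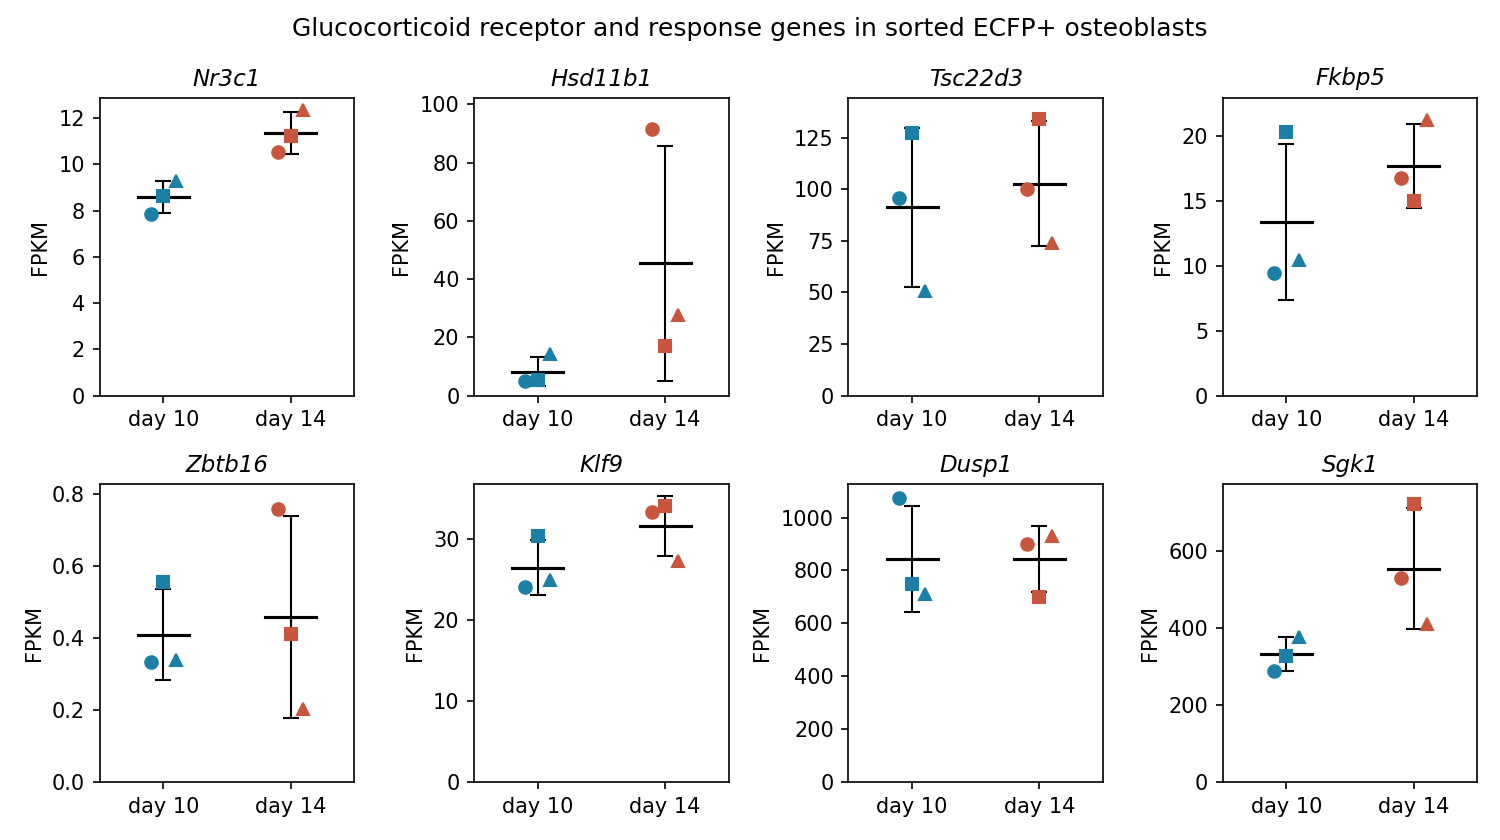
FPKM of the 8 genes in each sample on day 10 (blue) and day 14 (red), with circles, squares and triangles for replicates 1, 2 and 3, a bar at the mean and whiskers of 1 SD (n = 3 per day). Each vertical axis starts at 0 and has its own scale. The days do not overlap for *Nr3c1*, *Hsd11b1* and *Sgk1*, and they overlap for the other 5 genes.

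*Nr3c1*, the receptor gene on chromosome 18, measured 7.86, 8.63 and 9.29 FPKM in day 10 replicates 1, 2 and 3 and 10.5, 11.2 and 12.3 FPKM in day 14 replicates 1, 2 and 3. Its mean was 8.59 ± 0.711 FPKM (SD, n = 3) on day 10 and 11.4 ± 0.910 FPKM (SD, n = 3) on day 14, a ratio of 1.32. The days did not overlap, and the samples of each day lay close together, with coefficients of variation of 8.27% and 8.002%. The log2 fold change was 0.40 (SE 0.17, 95% interval 0.02 to 0.78), with an unadjusted p = 0.0425 and an adjusted p = 0.479 by limma, and an exact permutation p = 0.1 (two-sided). Among all genes, the receptor ranked 4979 by its mean level on day 10 and 4193 on day 14. Its unadjusted p was above 0.05 in 8 of 15 alternatives, namely with the same FPKM sum in every sample, without the mean-variance trend, with the replicate number as a block and in 5 of the 6 fits that left out 1 sample.

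The other steroid receptors described here, *Nr3c2*, *Esr1*, *Esr2* and *Pgr*, were at lower levels than *Nr3c1* in every sample. *Nr3c2*, the mineralocorticoid receptor, which also binds corticosterone, measured 0.578, 0.421 and 0.265 FPKM on day 10 and 0.451, 0.0869 and 0.0365 FPKM on day 14, which is at most 16.2 estimated reads at its longest coding transcript. *Esr1*, estrogen receptor α, measured 2.73, 3.45 and 3.96 FPKM on day 10 and 4.15, 4.47 and 4.37 FPKM on day 14. Its days did not overlap, and its log2 fold change of 0.36 (SE 0.23) had an adjusted p = 0.669 by limma. Over the 6 samples, the progesterone receptor *Pgr* ranged from 0.0635 to 0.202 FPKM and *Esr2*, estrogen receptor β, from 0.137 to 0.635 FPKM.

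The chaperones and coregulators that work with the receptor were counted next. Of 12 chaperone genes, 3 were higher and 1 was lower on day 14 at an unadjusted p under 0.05 (5.6% and 4.4% of all genes). Among the 6751 genes with a mean of at least 5 FPKM, 12.4% were higher at that threshold. No chaperone gene had an adjusted p under 0.05, and their median log2 fold change was 0.14. *Hsp90aa1*, the inducible Hsp90 gene, measured 11.97, 12.99 and 16.56 FPKM on day 10 and 21.7, 25.8 and 23.6 FPKM on day 14, a log2 fold change of 0.78 (SE 0.17) with an adjusted p = 0.297 by limma. *Hspa8*, a constitutive Hsp70 gene, had a log2 fold change of 0.55 (SE 0.17) and *Hsp90ab1*, the constitutive Hsp90 gene, one of 0.46 (SE 0.18). *Stub1*, a ubiquitin ligase that sends chaperone clients to degradation, was the lower one, with a log2 fold change of −0.44 (SE 0.14). Without day 14 replicate 2 the counts of chaperone genes were 2 higher and 1 lower, and the median was 0.04. Of all 19674 genes tested in that fit, 1379 were higher and 1178 lower. The median log2 fold change of 13 coregulator genes was 0.06. Without day 14 replicate 2, 1 of them was higher and 1 was lower at an unadjusted p under 0.05, against 1379 and 1178 of all 19674 genes. With all samples 1 was higher and none was lower, against 5.6% and 4.4% of all tested genes. That gene was *Nrip1*, a corepressor of nuclear receptors, at 11.2, 13.2 and 15.4 FPKM on day 10 and 20.2, 17.7 and 20.4 FPKM on day 14 (log2 fold change 0.56, SE 0.17, adjusted p = 0.360 by limma). The next by p were the coactivator *Ncoa3*, at 0.41 (SE 0.19) and without overlap between the days, the chromatin remodeller *Smarca4*, at −0.31, and the Mediator subunit *Med1*, at 0.13 on the log2 scale.

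*Hsd11b1* (chr1:193221634-193264075, minus strand), whose upstream window is printed above, had the widest range among the members, with its highest sample 17.6-fold above its lowest. It measured 5.19, 5.42 and 14.2 FPKM on day 10 and 91.6, 17.1 and 27.7 FPKM on day 14. All 3 day 14 samples were above all 3 day 10 samples, but the day 14 samples were far apart, with the highest 5.36-fold above the lowest, and day 10 replicate 3 lay near day 14 replicate 2. The mean was 8.26 ± 5.11 FPKM (SD, n = 3) on day 10 and 45.4 ± 40.3 FPKM (SD, n = 3) on day 14, a ratio of 5.50. The log2 fold change was 2.24 (SE 0.61, 95% interval 0.85 to 3.63), with an unadjusted p = 0.00576, an adjusted p = 0.319 by limma and an exact permutation p = 0.1 (two-sided). Leaving out day 14 replicate 1, the highest sample, gave a log2 fold change of 1.55, and leaving out day 14 replicate 2 gave 2.76, both without an adjusted p under 0.05. The unadjusted p was under 0.05 in 14 of 15 alternatives, and was 0.0591 with an ordinary linear model. By mean level the gene ranked 5101 on day 10 and 1348 on day 14. At its longest coding transcript, its values stand for about 35.7 to 579.6 estimated reads per sample.

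*H6pd* supplies the NADPH with which the enzyme of *Hsd11b1* works, in the lumen of the endoplasmic reticulum. Its levels were 13.87, 17.998 and 17.39 FPKM on day 10 and 39.8, 19.6 and 35.9 FPKM on day 14. The days did not overlap, although day 14 replicate 2 was close to day 10, and the log2 fold change was 0.89 (SE 0.27) with an adjusted p = 0.349 by limma. The ratio of *Hsd11b1* to *H6pd* FPKM was 0.375, 0.301 and 0.814 on day 10 and 2.30, 0.871 and 0.772 on day 14, so the days overlapped in this ratio. *Hsd11b2*, the inactivating enzyme, stayed between 0.124 and 0.547 FPKM in the 6 samples, which is at most 6.8 estimated reads. In the list of 10 genes of corticosteroid supply and clearance, *H6pd* alone had an unadjusted p under 0.05. Over all tested genes, 5.6% were higher and 4.4% lower at that threshold. The median log2 fold change of the list was 0.09. *Akr1c18*, a 20α-hydroxysteroid dehydrogenase, was at 0.423, 1.13 and 0.666 FPKM on day 10 and 1.13, 1.22 and 2.201 FPKM on day 14. *Srd5a1*, a steroid 5α-reductase, and *Star*, a cholesterol carrier of steroid-making cells, had log2 fold changes of 0.19 and 0.00.

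Markers of other cells were set beside *Hsd11b1*, since fibroblasts and adipocytes also express it. The 10 fibroblast and progenitor markers summed to between 8832 and 13149 FPKM on day 10 and to between 13657 and 20308 FPKM on day 14. These sums did not overlap, but no single gene of the 10 was higher on day 14 without overlap, and 1 was lower. Over all tested genes, 7.59% were higher and 6.67% lower without overlap. Of these 10 genes, 2 were higher (*Cd34* and *Ly6a*) and 1 was lower (*Lepr*) on day 14 at an unadjusted p under 0.05. Over all tested genes, 5.6% were higher and 4.4% lower. Without day 14 replicate 2 the counts of the 10 were 5 and 1, where 1379 of all 19674 genes tested were higher and 1178 lower. Of 9 adipocyte markers, *Cfd* was listed at 0 in every sample. *Adipoq* and *Plin1*, named after their values were seen, had means of 0.126 FPKM or less on either day. Of the 9 markers, 6 were under 1 FPKM in every sample, so the sum comes mostly from the others, which are not named here. The adipocyte sum moved from between 12.7 and 19.6 FPKM to between 22.7 and 33.9 FPKM, so it did not overlap either. Of the 5 adipocyte markers tested, 2 were higher and none was lower on day 14 at an unadjusted limma p under 0.05. The shares over all tested genes were 5.6% and 4.4%. Without day 14 replicate 2, 1 of 6 was higher and none lower, against 1379 and 1178 of all 19674 genes tested. With all samples, 1 of the 5 was higher without overlap (7.59% of all tested genes). The part of these cells in the *Hsd11b1* difference was not tested, nor was that of the lower OB marker levels on day 14, and in sorted bulk samples a different mix of cells and a different level per cell cannot be told apart.

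**Figure D2:**
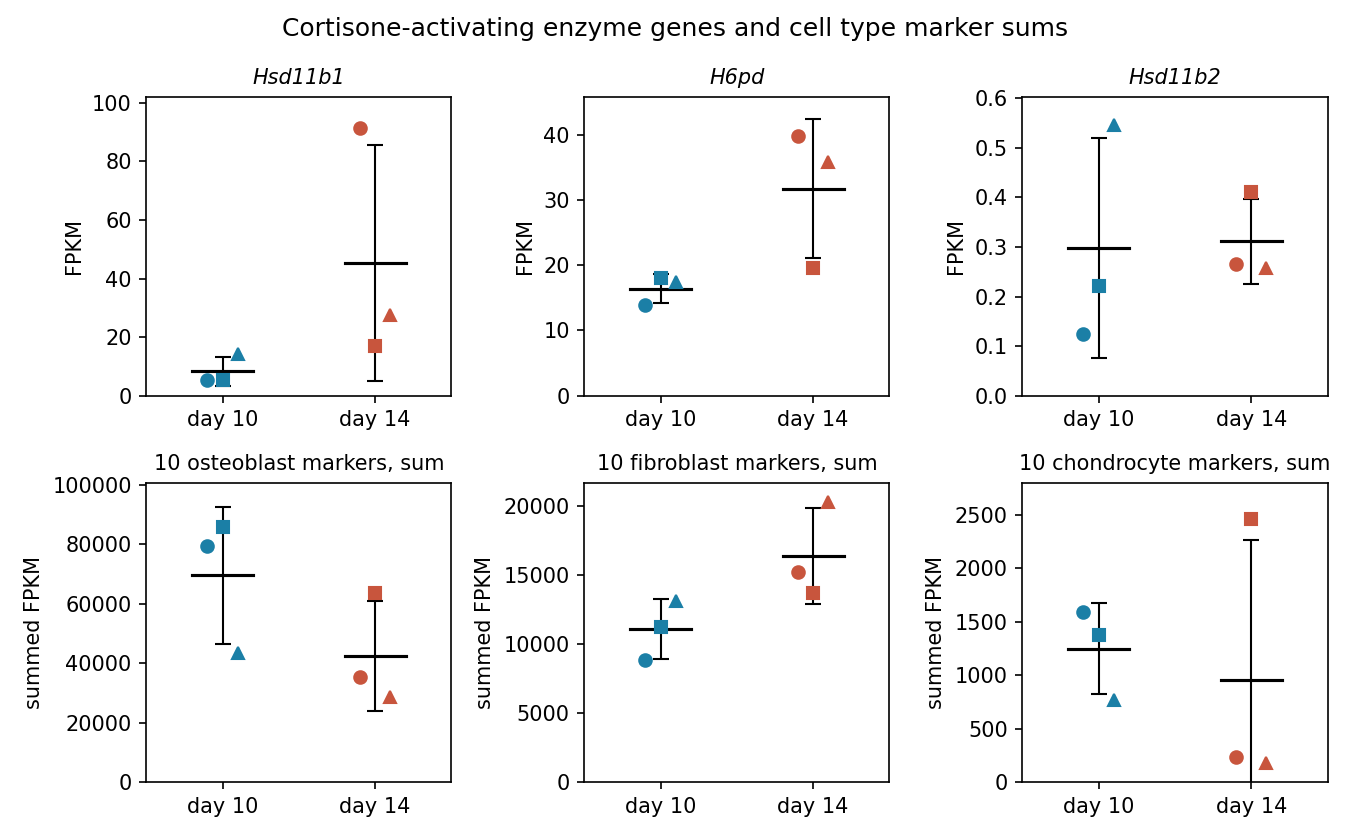
Upper row, FPKM of the activating enzyme gene *Hsd11b1*, of *H6pd* and of the inactivating enzyme gene *Hsd11b2*; lower row, summed FPKM of 10 markers each of osteoblasts, fibroblasts and progenitors, and chondrocytes, for day 10 (blue) and day 14 (red). Circles, squares and triangles are replicates 1, 2 and 3, bars are means and whiskers 1 SD (n = 3 per day), and the whisker of the day 14 chondrocyte sum is cut at 0. The fibroblast sum, like *Hsd11b1* and *H6pd*, does not overlap between the days, and day 14 replicate 2 stands apart in the chondrocyte sum.

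Among the response genes, *Sgk1* (chr10:21882184-21999903, plus strand), a kinase named for its induction by serum and glucocorticoids, measured 289, 327 and 377 FPKM on day 10 and 529.9, 720.5 and 409 FPKM on day 14. The day 14 samples were all higher, with replicate 3 close to the highest day 10 sample. The mean was 331 ± 44.3 FPKM (SD, n = 3) on day 10 and 553 ± 157 FPKM (SD, n = 3) on day 14, a ratio of 1.67. Its log2 fold change was 0.71 (SE 0.24, 95% interval 0.15 to 1.27), with an unadjusted p = 0.0183, an adjusted p = 0.397 by limma and an exact permutation p = 0.1 (two-sided). The unadjusted p was under 0.05 in 11 of 15 alternatives, among them 3 of the 6 fits that left out 1 sample. With an ordinary linear model it was 0.0527. *Sgk1* ranked 151 among all genes on day 10 and 95 on day 14. Its relative *Sgk3* went the other way, at 6.15, 5.01 and 4.81 FPKM on day 10 and 2.49, 3.84 and 2.51 FPKM on day 14 (log2 fold change −0.85, SE 0.26, adjusted p = 0.354 by limma), and *Sgk2* stayed at 0.468 FPKM or less.

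*Dusp1* (chr17:26505590-26562128, minus strand), a phosphatase that switches off MAP kinases, was the member with the highest mean level on both days. It measured 1075, 747 and 710 FPKM on day 10 and 902, 699 and 931 FPKM on day 14, and the days overlapped over most of their range. The means were 844 ± 200 and 844 ± 126 FPKM (SD, n = 3 each). The log2 fold change was 0.01 (SE 0.25, 95% interval −0.56 to 0.59, adjusted p = 0.995 by limma), and its sign turned when every sample was scaled to the same FPKM sum (−0.01) or by the median of ratios. *Dusp1* shares exon bases with *Ergic1* on the opposite strand, and since no stranded counting is stated, reads of the shared bases cannot be assigned to either gene. Of its relatives, *Dusp2* had a log2 fold change of 1.29 (SE 0.56, adjusted p = 0.496 by limma), with 1.59, 0.644 and 0.910 FPKM on day 10 and 2.02, 5.74 and 1.40 FPKM on day 14, and without day 14 replicate 2 it no longer had an unadjusted p under 0.05. *Dusp4* ranged from 1.01 to 10.5 FPKM, *Dusp5* from 10.7 to 22.8 FPKM and *Dusp6* from 14.7 to 25.8 FPKM, with overlapping days.

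*Dusp1* is also an immediate early gene, and such genes can be induced while tissue is digested and sorted. Of 14 immediate early and dissociation genes, 2 (*Hspa1a* and *Hspa1b*) were higher on day 14 at an unadjusted p under 0.05 and none was lower (5.6% and 4.4% of all tested genes). The share higher was 12.4% among the 6751 genes with a mean of at least 5 FPKM. The median log2 fold change of the 14 was 0.34. *Hspa1b*, an inducible Hsp70 gene, measured 87.8, 34.8 and 86.4 FPKM on day 10 and 220, 191 and 162 FPKM on day 14 (log2 fold change 1.56, SE 0.34, adjusted p = 0.297 by limma). *Hspa1a* had a log2 fold change of 1.40 (SE 0.42), *Ier3* one of 0.38 (SE 0.19) and *Egr1* one of 0.44 (SE 0.26). *Fos* was at 1596 ± 356 FPKM on day 10 and 1479 ± 204 FPKM on day 14 (SD, n = 3 each). *Hspa1a* and *Hspa1b* are near-identical copies, so the split of reads between them is uncertain. The part of the digestion in the levels of *Dusp1* and *Sgk1* was not tested.

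*Tsc22d3* (chrX:140539528-140600659, minus strand) encodes GILZ, a leucine zipper protein through which glucocorticoids act against inflammation. Its levels were 95.5, 127 and 50.6 FPKM on day 10 and 100.2, 134 and 73.9 FPKM on day 14. The days overlapped, with replicate 2 highest and replicate 3 lowest on each. The mean was 91.2 ± 38.6 FPKM (SD, n = 3) on day 10 and 103 ± 30.2 FPKM (SD, n = 3) on day 14. The log2 fold change of 0.23 (SE 0.35, 95% interval −0.56 to 1.02, adjusted p = 0.888 by limma) became −0.15 when day 10 replicate 3 was left out. Its relative *Tsc22d1*, which responds to TGF-β signals, measured 321, 313 and 292 FPKM on day 10 and 233, 714 and 414 FPKM on day 14, and *Tsc22d2* and *Tsc22d4* lay between 8.18 and 12.6 FPKM in all samples.

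*Fkbp5* (chr17:28399094-28517527, minus strand) encodes a co-chaperone that lowers the hormone affinity of the receptor and so forms a feedback loop. It measured 9.47, 20.3 and 10.4 FPKM on day 10 and 16.8, 15.0 and 21.3 FPKM on day 14. Day 10 replicate 2 lay among the day 14 samples, and the 2 other day 10 samples lay below all of them. The mean was 13.4 ± 6.01 FPKM (SD, n = 3) on day 10 and 17.7 ± 3.25 FPKM (SD, n = 3) on day 14, with a log2 fold change of 0.47 (SE 0.30, 95% interval −0.21 to 1.14, adjusted p = 0.658 by limma). Without day 10 replicate 2 the log2 fold change was 0.81, with an unadjusted p = 0.00695 and an adjusted p = 0.578 by limma. *Fkbp4*, the co-chaperone that takes the place of Fkbp5 when hormone binds, ranged from 18.8 to 28.6 FPKM with a log2 fold change of 0.03. The *Fkbp5* to *Fkbp4* ratio was 0.370, 1.08 and 0.364 on day 10 and 0.690, 0.536 and 0.982 on day 14, and was highest in day 10 replicate 2.

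*Klf9* (chr19:23141226-23168134, plus strand), a zinc finger transcription factor, varied least within a day after the receptor, with coefficients of variation of 12.9% and 11.8%. It measured 24.0, 30.3 and 24.9 FPKM on day 10 and 33.3, 34.0 and 27.3 FPKM on day 14, and the lowest day 14 sample lay below the highest day 10 sample. The log2 fold change was 0.26 (SE 0.16, 95% interval −0.12 to 0.63, adjusted p = 0.669 by limma). *Klf13* ranged from 5.27 to 7.88 FPKM, and *Klf15*, another glucocorticoid-induced factor of this family, from a listed 0 to 0.943 FPKM.

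*Zbtb16* (chr9:48654297-48836222, minus strand) encodes PLZF, a transcription factor whose gene responds strongly to glucocorticoids in many cells. In these OBs it was the lowest of the members, with 0.333, 0.555 and 0.340 FPKM on day 10 and 0.757, 0.412 and 0.202 FPKM on day 14. At its longest coding transcript this is about 7.0 to 16.8 estimated reads per sample, so a difference between the days was not detectable at this depth unless it was large. The log2 fold change was 0.03 (SE 0.60, 95% interval −1.33 to 1.39, adjusted p = 0.996 by limma), and its sign turned with the same FPKM sum in every sample (−0.01).

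**Figure D3:**
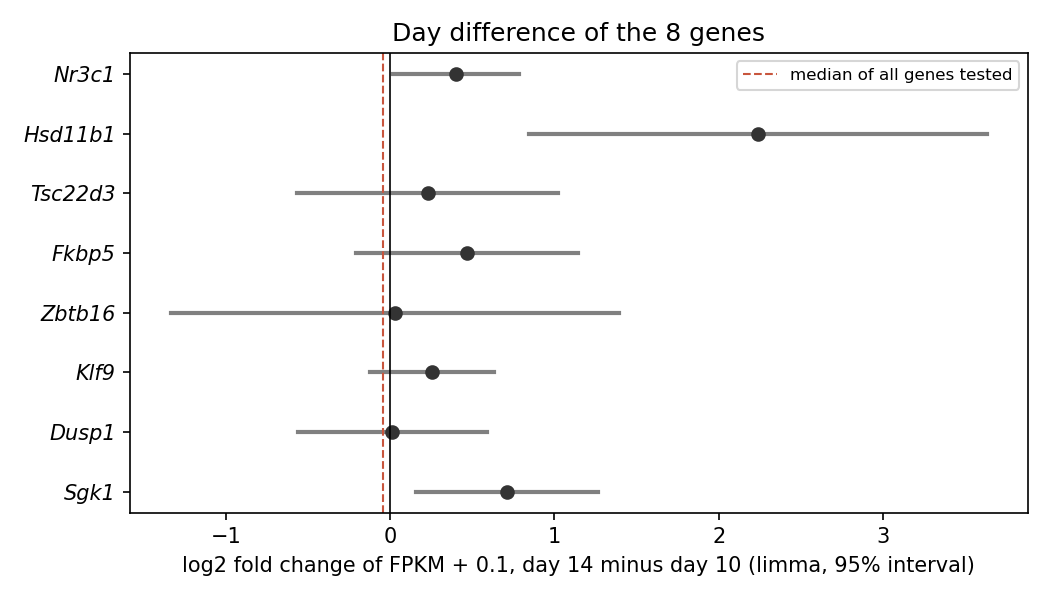
Log2 fold change of FPKM + 0.1 of the 8 genes, day 14 minus day 10, with 95% intervals from limma (n = 3 per day), a solid line at 0 and a dashed line at the median of all genes tested (−0.04). The intervals of *Nr3c1* (from 0.02), *Hsd11b1* (from 0.85) and *Sgk1* (from 0.15) lie above 0, unadjusted for the number of genes, and that of *Zbtb16* is among the widest.

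In level per length, the order on day 10 was *Dusp1*, *Sgk1*, *Tsc22d3*, *Klf9*, *Fkbp5*, *Nr3c1*, *Hsd11b1* and *Zbtb16*. Only *Nr3c1* and *Hsd11b1* overlapped among these neighbours, and the step from *Hsd11b1* to *Zbtb16* was 20.2-fold. On day 14 *Hsd11b1* stood between *Tsc22d3* and *Klf9*, and the other 7 genes kept their order. There *Dusp1* overlapped with *Sgk1*, and *Hsd11b1* overlapped with both of its neighbours. The ratio of *Hsd11b1* to *Nr3c1* FPKM was 0.660, 0.628 and 1.525 on day 10 and 8.69, 1.522 and 2.24 on day 14, so the days overlapped in this ratio.

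Other genes that glucocorticoids are known to induce were counted as a group. Of 30 listed, 27 were tested, and 6 were higher and 1 was lower on day 14 at an unadjusted p under 0.05 (5.6% and 4.4% of all tested genes). The share higher was 12.4% among the 6751 genes with a mean of at least 5 FPKM. None of the 27 had an adjusted p under 0.05, and their median log2 fold change was 0.32. *Nfkbia*, the inhibitor of NF-κB and also one of its own targets, measured 231, 196 and 309 FPKM on day 10 and 500, 406 and 485 FPKM on day 14 (log2 fold change 0.94, SE 0.21, adjusted p = 0.298 by limma). *Glul*, glutamine synthetase, had a log2 fold change of 0.96 (SE 0.25), *Cebpd*, a C/EBP transcription factor, one of 0.54 (SE 0.14) and *Anxa1*, an anti-inflammatory annexin, one of 0.81 (SE 0.25). These 4 genes, picked by their small p, had no overlap between the days. Of the 27, 6 were higher and 1 was lower without overlap. The shares were 7.59% and 6.67% of all tested genes, and 13.8% of the 6751 genes were higher without overlap. Without day 14 replicate 2, 5 of 28 were higher and 2 lower at an unadjusted p under 0.05, with a median of 0.31. Of all 19674 genes tested in that fit, 1379 were higher and 1178 lower.

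Genes that glucocorticoids are known to lower held more calls of higher than of lower levels on day 14. Of 18 listed, all were tested, 6 were higher and none was lower at an unadjusted p under 0.05 (5.6% and 4.4% of all tested genes). Among the 6751 genes with a mean of at least 5 FPKM, 12.4% were higher. The median log2 fold change of the 18 was 0.80. *Il6*, an inflammatory cytokine, measured 105, 87.4 and 97.2 FPKM on day 10 and 214, 199 and 218 FPKM on day 14, with a log2 fold change of 1.13 (SE 0.15) and an adjusted p = 0.116 by limma. *Icam1* and *Vcam1*, leukocyte adhesion molecules, had log2 fold changes of 1.49 (SE 0.31) and 1.11 (SE 0.32), and *Il11*, a cytokine of the Il6 family, one of 1.26 (SE 0.33). The osteocalcin genes *Bglap* and *Bglap2*, which glucocorticoids lower in OBs, spread widely on both days and had log2 fold changes of −1.22 and −1.69 with adjusted p-values of 0.705 and 0.595 by limma; they are near-identical copies, and the split of reads between them is uncertain. Without day 14 replicate 2, 8 genes of this list were higher and 2 lower, against 1379 and 1178 of all 19674 genes tested. In that fit 1 gene of the list had an adjusted p under 0.05 by limma, where 76 of all genes did. The sum of 10 myeloid markers, cells that also make several of these cytokines, was 42.9, 418 and 129 FPKM on day 10 and 296, 20.2 and 664 FPKM on day 14, and its part in these values was not tested.

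**Figure D4:**
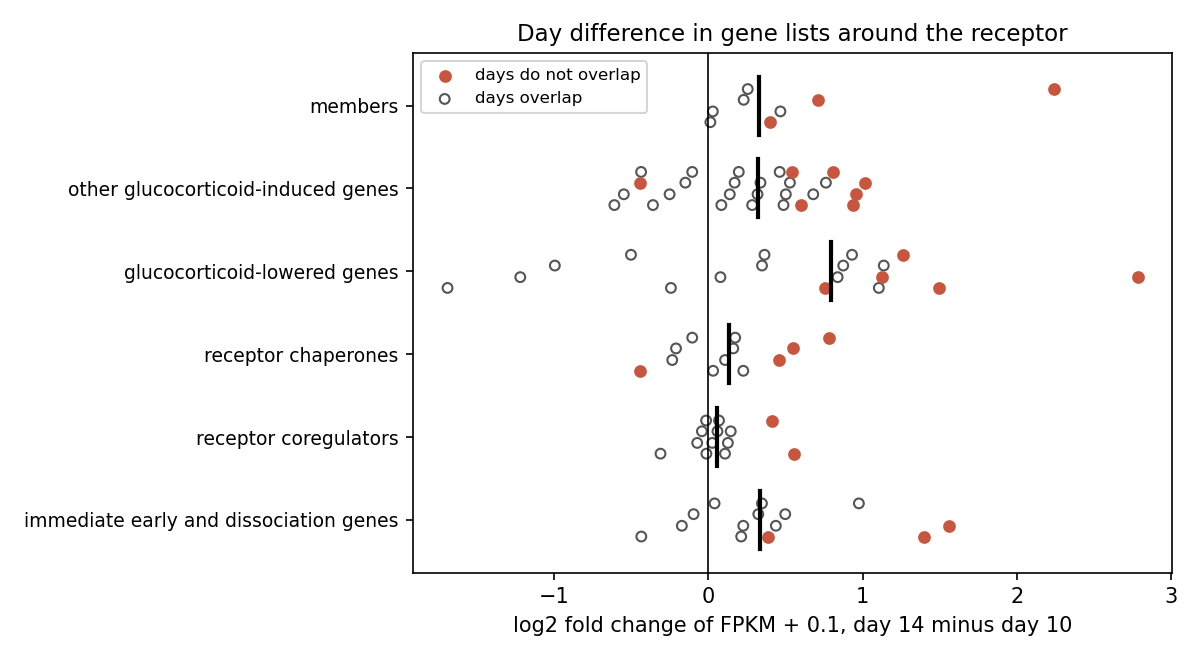
Log2 fold change of FPKM + 0.1, day 14 minus day 10, for each tested gene of 6 lists, with filled points where the days do not overlap, open points where they do, and a bar at the median of each list. The medians are 0.33 for the 8 members, 0.32 for other glucocorticoid-induced genes, 0.80 for glucocorticoid-lowered genes, 0.14 for chaperones, 0.06 for coregulators and 0.34 for immediate early genes.

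Genes with the profile most like that of 3 members were sought by the Pearson r of log2(FPKM + 0.1) over the 6 samples, among 11161 genes with a mean of at least 1 FPKM. These are descriptions over samples that share their day. The highest r among 11161 genes over only 6 samples can be high through the search alone. For *Nr3c1* the most alike were *Itgbl1* (r = 0.998), *Arhgef12* (0.998) and *Fgl2* (0.997). *Itgbl1*, an integrin-like secreted protein, measured 137, 172 and 213 FPKM on day 10 and 306, 391 and 532 FPKM on day 14, the same order of samples as the receptor. For *Hsd11b1* they were *1110046J04Rik* (0.994), *Rnf19b* (0.981) and *Cxcl12* (0.980), a chemokine of stromal cells at 114, 134 and 196 FPKM on day 10 and 549, 218 and 379 FPKM on day 14. For *Tsc22d3* they were *Usp6nl* (0.985), *Itm2b* (0.972) and *Klhl7* (0.968), which, like it, had replicate 3 lowest on both days.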

How the data were processed

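RNA of ECFP+ OBs was sequenced by the authors as 75-base single-end reads (3 samples of day 10, 3 of day 14) from low-input cDNA. Reads were mapped to mm10, and the submitters' processing notes name TopHat2 2.0.13, Bowtie2 2.2.3, SAMtools 0.1.19 and Cufflinks 2.2.1. The authors deposited 1 FPKM value per gene and sample, normalised within each sample; the gene annotation and the treatment of multi-mapped reads are not given in the sources used here. In day 14 replicate 2, 25 symbols had been turned into dates and were restored by position.

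The 19526 genes with a mean above 0.1 FPKM were compared between days with limma 3.58.1 in R 4.3.3 (lmFit, then eBayes, with the prior variance allowed to follow the mean level) on log2(FPKM + 0.1), with day as the single factor. Fold changes are on this scale and understate the change of low genes. p-values were adjusted over all genes tested by the Benjamini-Hochberg method. Members were also compared with a two-sided exact permutation test (scipy 1.17.1). Fold changes over 2 were counted as background only. The limma script was run on simulated data, in which no changed gene had a change as small as that of most members. The run therefore does not show whether such changes would be found. Reads were estimated from low FPKM values of genes with 1 transcript, a fragment length of 225 bases being assumed, and between 74.3% and 79.0% of those values came within 0.1 of a whole read. Coordinates come from GENCODE vM21 and upstream sequences from RefSeq (GRCm38.p6), both of the same build as mm10 and counted from 1.

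The members and gene lists were chosen with earlier results of these data known. Named genes are the members, other steroid receptors (1 gene of that list is not reported here) and relatives of the members, up to 4 genes per list by smallest unadjusted p among those with a mean of at least 1 FPKM, the 3 most alike genes for each of 3 members, and genes said to be named after their values were seen. Single cell type markers, *Fos*, *Bglap* and *Bglap2* were also named after their values were seen. *Adgre1*, *Hbb-bs* and *Hbb-bt*, markers of myeloid and erythroid cells, were not analysed here. Alternatives were another pseudocount, filter, scaling, variance model, a replicate block and leaving out each sample.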

Additional observations from a re-analysis of the deposited data

How the results depend on the processing

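No member reached an adjusted p under 0.05 by limma in any of 15 alternatives. *Nr3c1* stayed between 0.34 and 0.46 on the log2 scale (adjusted p between 0.302 and 0.997), *Hsd11b1* between 1.55 and 2.76 (0.0941 to 0.980) and *Sgk1* between 0.50 and 0.91 (0.261 to 0.997). *Dusp1* and *Zbtb16* lay near 0 and had no stable sign: with the same FPKM sum in every sample *Dusp1* was at −0.0131 and *Zbtb16* at −0.00505, with exact permutation p = 1 for each, and by the median of ratios *Dusp1* was at −0.00493 (exact permutation p = 1). When 1 sample was left out, *Dusp1* ranged from −0.10 to 0.20, *Zbtb16* from −0.35 to 0.41 and *Tsc22d3*, below 0 without day 10 replicate 3, from −0.15 to 0.52; the cause was not tested. *Zbtb16* could not be tested under a mean FPKM above 1, since it was filtered out.

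Members at an unadjusted p under 0.05 numbered 1 (*Nr3c1*) with an ordinary linear model and between 1 and 3 when 1 sample was left out, and members without overlap between 3 and 5. Over all genes, those over 2-fold numbered 2665, against 514 with a pseudocount of 1, 5107 with 0.01, 845 with a mean FPKM above 1 and 4257 with the same FPKM sum, and between 2617 and 4022 when 1 sample was left out. Genes with an adjusted p under 0.05 numbered 6 with the ordinary linear model and between 3 and 76 (without day 14 replicate 2) when 1 sample was left out, genes at an unadjusted p under 0.05 between 937 and 2559, and genes without overlap, which have fewer samples to clear, between 3583 and 6048.

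List counts without day 14 replicate 2 were added after the data were seen. In them 6 of 10 OB markers and 8 of 10 chondrocyte markers were lower and 7 of 10 myeloid markers were higher at an unadjusted p under 0.05, where 1178 of all 19674 genes tested were lower and 1379 higher.

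Both days number their replicates 1 to 3. Deviations of same-numbered samples correlated across genes at r = 0.0580, −0.00584 and 0.0887, so the samples were taken to share only a number, and 2 of the 3 day 10 replicates correlated best with their own number. With the replicate number as a block, 2 members had an unadjusted p under 0.05: *Hsd11b1* (adjusted p = 0.239 by limma) and *Sgk1* (adjusted p = 0.374), but not *Nr3c1* (adjusted p = 0.467).

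The depth of about 4525000 to 7740000 estimated reads limits what can be said of *Zbtb16*, *Hsd11b2* and *Nr3c2*, and the 3 samples a day limit all members alike.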

Other observations

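Genes in which day 10 replicate 2 and day 14 replicate 3 were the 2 highest samples were counted after the values of *Fkbp5* had been seen. Since *Fkbp5* prompted the count, the members are not counted here. Among other glucocorticoid-induced genes it held for 4 of 27 (14.8%), *Mt1*, *Mt2*, *Rgs2* and *Lcn2*, where it held for 915 of all 19526 genes tested (4.69%). *Mt1*, a metallothionein, measured 976, 2898 and 1119.8 FPKM on day 10 and 1634, 1759.8 and 3132 FPKM on day 14. *Mt2*, its neighbour on the chromosome, measured 223, 755 and 293 FPKM on day 10 and 514, 495 and 945 FPKM on day 14. *Lcn2*, a secreted lipocalin that neutrophils also contain, measured 0.633, 7.89 and 0.199 FPKM on day 10 and 0.678, 0.261 and 8.77 FPKM on day 14. *S100a8*, a neutrophil gene, measured 3.33, 166 and 2.79 FPKM on day 10 and 26.1, 0 and 22.3 FPKM on day 14, and its part in these values was not tested.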
